A study of Mus musculus with 6 samples.

Results

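The genes described here encode secreted antagonists of Wnt signalling: Sfrp1, Sfrp2, Sfrp4, Sfrp5, Frzb, Dkk2, Dkk3, Wif1, Notum and Serpinf1. They were taken by gene symbol from a table of transcript levels, which held all 10 of them among 18268 genes. Levels are given as FPKM, a scale that divides the reads of a gene by its transcript length and by the depth of the library, so levels can be compared between genes.

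Transcripts were measured in colorectal tissue of C57BL/6 mice with colitis. In all 6 mice the gut lining had been injured with dextran sulfate sodium (DSS) over 7 days. During 6 of these days 3 of them also received berberine (BBR), a plant alkaloid, by gavage, and the other 3 received sulfasalazine (SASP), an established colitis drug of the aminosalicylate class. The study used adult males. The labels give no age and the same tissue for all mice, while the study writes of rectal samples in its sequencing methods and of colon samples for its SASP experiment, so drug and gut segment or experiment cannot be told apart. Neither healthy mice nor colitis mice without a drug were analysed here, and every difference is that of BBR against SASP. The estimated depth was 17400000 to 17700000 reads for BBR mice and 18200000 to 19300000 reads for SASP mice. Epithelial, smooth muscle and fibroblast markers were present in every mouse. BBR mouse 3 stood apart by its smooth muscle markers, BBR mouse 2 by its adipocyte markers, and SASP mouse 1 had the lowest sums of fibroblast, smooth muscle and enteric nerve markers, so values that change much without these mice are given beside the results they touch.

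Wnt proteins are lipid-bearing signals that bind Frizzled receptors and the co-receptors Lrp5 and Lrp6, which lets β-catenin build up and switch on target genes. In the colon this signal keeps crypt stem cells dividing, and much of it comes from fibroblasts under the crypts. Secreted antagonists limit its reach. The Sfrp proteins and Frzb carry a Frizzled-like domain and bind Wnt proteins, as does Wif1 through a domain of its own. Dkk2 binds the Lrp co-receptors, and Dkk3 is a divergent relative. Serpinf1, or pigment epithelium-derived factor, is a serpin known as an inhibitor of vessel growth that also binds Lrp6. Notum is an enzyme that removes the lipid from Wnt proteins.

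The BBR values of 4 members, Serpinf1, Frzb, Sfrp5 and Dkk2, all lay above their SASP values, which held for 18.5% of all genes in the table. The sequences upstream of these genes are shown because these members separated the groups together. RefSeq (GRCm38.p6) held an entry for 6 of the 10 members, and 250 bases before the start were read. Bases that belong to a GENCODE M21 transcript were left off, which shortened Serpinf1 to 172 bases and left too little of Frzb to show. The files were made on mm9, so these coordinates are not theirs. The windows are chr11:75422702-75422873 (minus strand) for Serpinf1, chr19:42202253-42202502 (minus strand) for Sfrp5 and chr3:132085042-132085291 (plus strand) for Dkk2. Each is written 5′ to 3′ on the strand of the gene, and capitals mark matches to the motifs named after them.
Serpinf1: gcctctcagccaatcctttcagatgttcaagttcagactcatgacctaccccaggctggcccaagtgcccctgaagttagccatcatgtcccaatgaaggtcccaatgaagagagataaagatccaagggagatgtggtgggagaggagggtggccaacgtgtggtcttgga
Sfrp5: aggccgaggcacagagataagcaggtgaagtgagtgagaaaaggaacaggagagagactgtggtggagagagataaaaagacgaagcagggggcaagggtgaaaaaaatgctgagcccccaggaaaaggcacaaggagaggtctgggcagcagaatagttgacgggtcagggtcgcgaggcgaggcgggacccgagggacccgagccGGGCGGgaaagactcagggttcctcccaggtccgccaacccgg
Dkk2: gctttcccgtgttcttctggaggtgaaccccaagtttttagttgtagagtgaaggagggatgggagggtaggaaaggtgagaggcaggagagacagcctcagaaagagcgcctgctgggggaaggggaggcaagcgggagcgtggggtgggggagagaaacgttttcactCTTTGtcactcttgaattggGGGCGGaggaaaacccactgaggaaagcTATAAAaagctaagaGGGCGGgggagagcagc

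The windows were searched on both strands, and a match is only a description of the letters. The core CTTTG, bound by the TCF and LEF partners of β-catenin, was found 80 bases before the start of Dkk2, and 3 of the 6 member windows of 250 bases held it, against 48.58% of 32851 RefSeq promoters. The longer form CTTTGAT, which contains that core, was in 0 of the 6 and in 3.205% of all. The GC box GGGCGG was in 4 of the 6 and in 32.74% of all, with 1 match in Sfrp5 and 2 in Dkk2. The TATA box TATAAA was in Dkk2 and Wif1, 2 of the 6, against 12.37% of all, and the clock E-box CACGTG was in Wif1 alone, against 6.021% of all. All these counts used the full 250 bases, also those left off above. For Frzb 229 of them belong to a transcript. Its CTTTG and GC box, 94 and 51 bases before the start, lie in that part. Serpinf1 held no match to any of these motifs in its window.

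Serpinf1 was the member that passed the test, higher in colitis mice receiving BBR. Its level was 2.57, 3.71 and 4.02 FPKM in BBR mice 1, 2 and 3, and 0.87, 1.77 and 1.61 FPKM in SASP mice 1, 2 and 3. The lowest BBR mouse was above the highest SASP mouse. The means were 3.43 ± 0.764 and 1.42 ± 0.480 FPKM (SD, n = 3 each), a ratio of 2.42. The log2 fold change on the log2(FPKM + 1) scale, which understates changes of low values, was 0.88 (SE 0.21, 95% interval 0.38 to 1.38, limma adjusted p = 0.0487). About 29.3 to 125.4 reads per mouse were behind these levels. The call was narrow and was lost without BBR mouse 1 (1.03), BBR mouse 2 (0.83), SASP mouse 1 (0.71), SASP mouse 2 (0.99) or SASP mouse 3 (0.95), with limma adjusted p-values of 0.0714 to 0.155, and also with no filter on low values (adjusted p = 0.0842) and a pseudocount of 0.1 (1.25, adjusted p = 0.0583). It held without BBR mouse 3 (0.78, adjusted p = 0.0416), a fit in which 33.6% of all tested genes were called. In all of these fits Serpinf1 was higher in BBR mice.

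Of the 10 members, 6 passed the filter of at least 1 FPKM in at least 3 mice and were tested, and 1 of these, Serpinf1, was called. Over all 12072 genes tested, 8.86% were called in either direction and 3.82% as higher in BBR mice. An unadjusted p under 0.05 with a higher level in BBR mice was reached by Serpinf1 and Frzb, 2 of 6, against 18.4% of all tested genes. The groups were fully apart, with BBR above, in the same 2 of 6 tested members, against 21.3% of all tested genes. Counts this small do not set the members apart from these backgrounds. The fitted log2 fold changes of the 6 were all above 0, with a median of 0.62 against 0.10 for all tested genes. That median was 0.21 without SASP mouse 1, where 4 of the 6 were above 0. With all mice, the log2 fold change of Dkk3 fell below 0 with median-ratio scaling and that of Sfrp4 with median-ratio scaling and quantile normalization. With array quality weights, also on all mice, 3 of the 6 were above 0 and the median was 0.02. In that fit 1 member was called as higher and 1 as lower in BBR mice. Over all 12072 genes tested, the same fit called 4636 as higher and 2490 as lower, 59.0% in either direction.

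**Figure D1:**
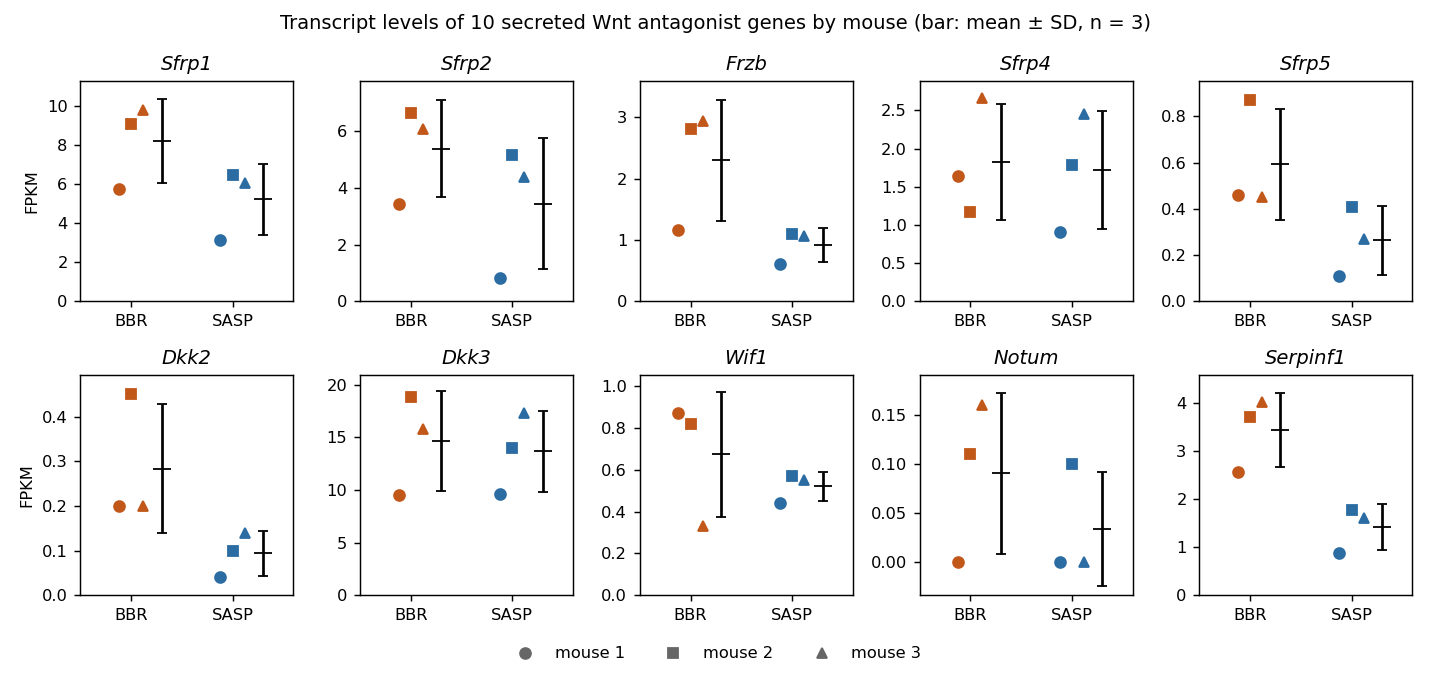
FPKM (vertical axis, a scale of its own for each gene) of the 10 antagonist genes in 3 BBR and 3 SASP mice, with each mouse as a point and the mean ± SD as a bar. BBR values lay above all SASP values for Serpinf1, Frzb, Sfrp5 and Dkk2, and the groups overlapped for the other members.

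Among the proteins that bind Wnt, Frzb had the largest ratio of means. It was at 1.16, 2.80 and 2.93 FPKM in BBR mice and at 0.60, 1.10 and 1.06 FPKM in SASP mice. The groups did not overlap, yet BBR mouse 1 was only just above SASP mouse 2, and the BBR mean rested on BBR mice 2 and 3. The means were 2.30 ± 0.987 and 0.92 ± 0.278 FPKM (SD, n = 3 each), a ratio of 2.50. The log2 fold change was 0.74 (SE 0.26, 95% interval 0.12 to 1.36), and it did not pass the threshold over all genes (limma adjusted p = 0.108). It stayed above 0 and short of the threshold in each alternative that tested it, at 0.59 to 1.02 when single mice were left out and at 0.20 with array quality weights.

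Sfrp1, the most abundant of the Wnt-binding members, was at 5.73, 9.07 and 9.79 FPKM in BBR mice and at 3.12, 6.47 and 6.06 FPKM in SASP mice. BBR mouse 1 lay below the higher SASP mice, so the groups overlapped. The means were 8.20 ± 2.17 and 5.22 ± 1.83 FPKM (SD, n = 3 each), and the log2 fold change was 0.58 (SE 0.28, 95% interval -0.083 to 1.25, limma adjusted p = 0.200). It was 0.31 without SASP mouse 1 and 0.077 with array quality weights.

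Sfrp2, its close relative, was at 3.45, 6.65 and 6.07 FPKM in BBR mice and at 0.83, 5.15 and 4.38 FPKM in SASP mice. SASP mouse 1 was far below the rest, and the other SASP mice lay within the BBR range. The means of 5.39 ± 1.71 and 3.45 ± 2.30 FPKM (SD, n = 3 each) gave a log2 fold change of 0.66 (SE 0.47, 95% interval -0.449 to 1.78, limma adjusted p = 0.357). Without SASP mouse 1 it was 0.11, and with array quality weights -0.036.

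Sfrp4 was at 1.64, 1.17 and 2.66 FPKM in BBR mice and at 0.91, 1.79 and 2.45 FPKM in SASP mice. The groups covered the same range. Its log2 fold change was 0.06 (SE 0.28, 95% interval -0.594 to 0.72, limma adjusted p = 0.889), and its sign turned without BBR mouse 3 (-0.14) or SASP mouse 1 (-0.17) and with both scalings named above. Changes within that interval were not detectable with these mice.

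Sfrp5 and Wif1 were too low for the filter and had no test. Sfrp5 was at 0.46, 0.87 and 0.45 FPKM in BBR mice and at 0.11, 0.41 and 0.27 FPKM in SASP mice. The groups did not overlap, but the gap between them was small and each value rested on about 3.8 to 28.5 reads. Wif1 was at 0.87, 0.82 and 0.33 FPKM in BBR mice and at 0.44, 0.57 and 0.55 FPKM in SASP mice. BBR mouse 3 held its lowest value and BBR mice 1 and 2 its highest. Of the 4 members below the filter, Sfrp5 and Dkk2 had all BBR values above all SASP values, against 13.1% of the 6196 genes below the filter. When all genes were fitted with no filter, the log2 fold changes of Sfrp5, Dkk2, Wif1 and Notum were 0.33, 0.23, 0.12 and 0.08, and none passed the threshold (limma adjusted p = 0.182, 0.160, 0.603 and 0.497).

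Of the Dkk genes, Dkk2 was low. It was at 0.20, 0.45 and 0.20 FPKM in BBR mice and at 0.04, 0.10 and 0.14 FPKM in SASP mice, on about 2.8 to 29.1 reads. The BBR mice were all above the SASP mice, with BBR mouse 2 well above the others. Dkk3 was at 9.48, 18.81 and 15.76 FPKM in BBR mice and at 9.65, 14.01 and 17.29 FPKM in SASP mice. The groups overlapped fully, and the lowest values of both groups were nearly equal. Its means were 14.7 ± 4.76 and 13.7 ± 3.83 FPKM (SD, n = 3 each), with a log2 fold change of 0.08 (SE 0.28, 95% interval -0.591 to 0.76, limma adjusted p = 0.858). The sign turned without BBR mouse 2 (-0.11) or SASP mouse 1 (-0.13) and with median-ratio scaling (-0.04). With array quality weights, Dkk3 passed the threshold as lower in BBR mice (-0.58, limma adjusted p = 0.0392). These weights were 5.32 for BBR mouse 1 and 4.85 for SASP mouse 3, and 0.129 to 0.746 for the other mice. In that fit 59.0% of all tested genes were called in either direction.

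Notum, the Wnt deacylase, was at the edge of detection. It was at 0.11 and 0.16 FPKM in BBR mice 2 and 3 and at 0.10 FPKM in SASP mouse 2, on at most about 6.1 reads, and was listed at 0 in the other 3 mice. No difference was detectable at this depth.

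Levels differed widely among the members. Averaged over the 6 mice, Dkk3 was at 14.2 FPKM, Sfrp1 at 6.71, Sfrp2 at 4.42, Serpinf1 at 2.43, Sfrp4 at 1.77 and Frzb at 1.61 FPKM. Below these came Wif1 at 0.597, Sfrp5 at 0.428, Dkk2 at 0.188 and Notum at 0.0617 FPKM. Dkk3 was above Sfrp1, and Sfrp1 above Sfrp2, in each of the 6 mice. Sfrp2 and Serpinf1 were each above Frzb in each of the 6 mice as well. The order of Sfrp2 and Serpinf1, and the place of Sfrp4 among these genes, changed from mouse to mouse. Serpinf1 was above Sfrp4 in all 3 BBR mice and below it in all 3 SASP mice, a pattern seen after the values were known and not tested. In SASP mouse 1 (0.87 against 0.91 FPKM) and SASP mouse 2 (1.77 against 1.79 FPKM) they were nearly equal.

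The values varied between mice that received the same drug. For all 10 members the highest value was in a BBR mouse, which also held for 66.23% of all genes in the table. It was in BBR mouse 3 for Sfrp1, Frzb, Sfrp4, Serpinf1 and Notum, in BBR mouse 2 for Sfrp2, Sfrp5, Dkk2 and Dkk3, and in BBR mouse 1 for Wif1. SASP mouse 1 held the lowest value of 7 of the 10 members, against 28.57% of all genes. The other 3 were Dkk3, lowest in BBR mouse 1, Wif1, lowest in BBR mouse 3, and Notum, which was at 0 in several mice. The FPKM summed over the members, a total led by Dkk3 and Sfrp1, was 25.6, 44.5 and 42.4 in BBR mice and 16.6, 31.5 and 33.8 in SASP mice. These sums overlapped, with BBR mouse 1 below SASP mice 2 and 3.

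**Figure D2:**
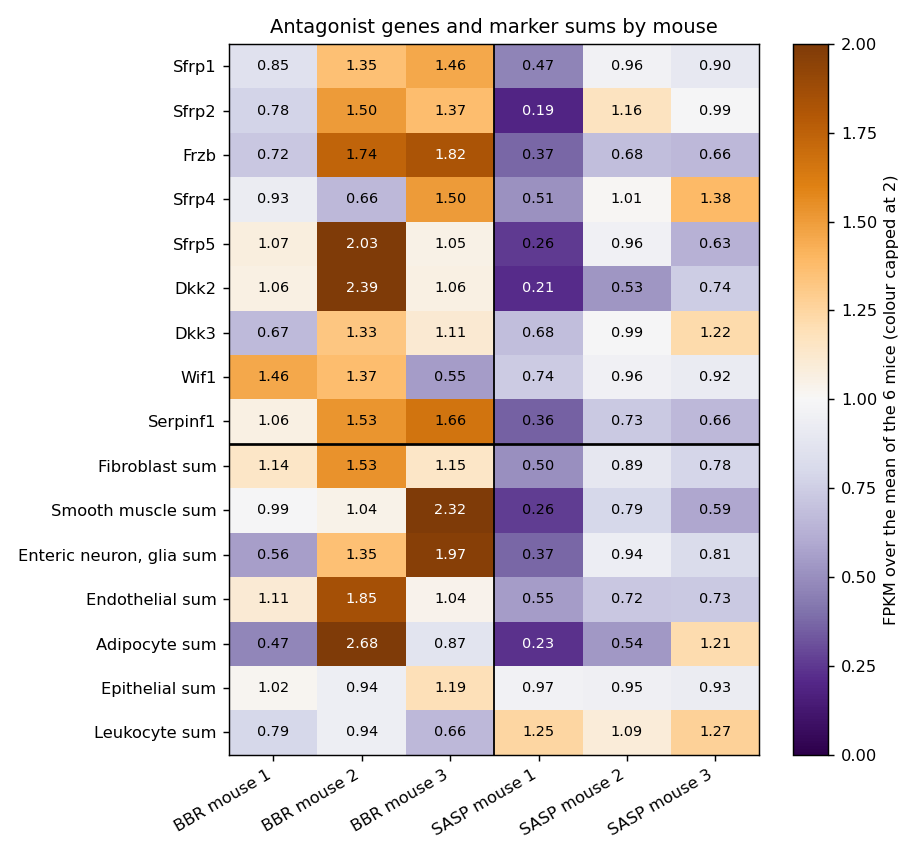
FPKM of 9 antagonist genes and sums of 7 cell type marker lists in each mouse, each divided by its mean over the 6 mice (colour, capped at 2, with the value printed in each cell; Notum is left out because it was at 0 in 3 mice). SASP mouse 1 was low for most antagonists and for fibroblast, smooth muscle and enteric nerve markers, and BBR mouse 3 was high for smooth muscle and enteric nerve markers.

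Markers of stromal cells, which are known producers of many of these antagonists, were higher in BBR than in SASP mice. Drug and gut segment or experiment cannot be told apart here either. The 9 fibroblast markers, among them the collagen genes Col1a1 and Col3a1, summed to 329.1, 440.7 and 329.8 FPKM in BBR mice and 143.8, 256.1 and 225.6 FPKM in SASP mice. Their groups did not overlap in this sum, and all 9 were higher in BBR mice with a median log2 fold change of 0.845. Of them 4 were called as higher, against 3.82% of all tested genes (Col1a1, Col3a1, Lum and Thy1, named after their values were seen). Without BBR mouse 1, BBR mouse 2, SASP mouse 1 or SASP mouse 3, 0 of the 9 were called, and without BBR mouse 3, 8 were. Calls over the whole table changed likewise. Of all 12072 genes tested, 14 to 72 were called as higher in the fits with 0, and 2682 without BBR mouse 3. In such bulk tissue, fewer cells of a type and less RNA per cell cannot be told apart. The 10 smooth muscle markers summed to 2905, 3063 and 6833 FPKM in BBR mice and 762.6, 2334 and 1739 FPKM in SASP mice. In limma 0 of these 10 were called, although all were higher in BBR mice (median 1.26). An unadjusted p under 0.05 was reached by 8 of them, against 18.4% of all tested genes with a higher level in BBR mice. The median was 0.82 without SASP mouse 1. The 7 endothelial markers tested, of 8, were also higher in BBR mice, with 1 called (Emcn) with all mice and 0 without BBR mouse 1, BBR mouse 2, SASP mouse 1 or SASP mouse 3, and their sums were 21.0 to 37.4 FPKM in BBR mice against 11.1 to 14.8 FPKM in SASP mice.

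Other lists overlapped or went the other way. Enteric neuron and glia markers summed to 15.6 to 55.0 FPKM in BBR mice and 10.5 to 26.2 FPKM in SASP mice. Epithelial markers summed to 7567 to 9573 FPKM in BBR mice and 7467 to 7751 FPKM in SASP mice. Single epithelial markers went both ways. Of the 10, 2 lay fully above the SASP mice, close to the 21.3% of all tested genes. Another 3 lay fully below, for which no share over all genes was counted. Of the 10, 1 was called as higher (Krt18, 0.74) and 1 as lower (Vil1, -0.55), named after their values were seen. Over all tested genes, 8.86% were called in either direction. Without BBR mouse 1 or SASP mouse 3, 0 epithelial markers were called. In these fits 1.10% and 0.795% of all tested genes were called in either direction. Leukocyte markers were lower in BBR mice, at 80.2 to 114.8 against 132.7 to 155 FPKM, with 6 of 7 tested markers lower. In limma 0 of them were called, and 4 reached an unadjusted p under 0.05, Coro1a, Cd79a, Lyz2 and S100a9, also named after their values were seen. For an unadjusted p under 0.05 with a lower level, no share over all genes was counted. Adipocyte markers were at 58.9 FPKM in BBR mouse 2 and at 5.13 to 26.6 FPKM in the other mice. The defining adipocyte gene Adipoq was at 6.85 FPKM in BBR mouse 2 and at 1.84 FPKM in SASP mouse 3, and at or near 0 in the other mice. Mesothelial markers summed to 0.14 to 2.01 FPKM, squamous epithelial markers to 0.59 to 2.73 FPKM and skeletal muscle markers to 6.45 to 19.7 FPKM. The part of these cell types in the levels of the antagonists was not tested.

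Set against the fibroblast markers, which was done after the data had been seen, 8 of the 10 antagonists overlapped between the groups. Serpinf1 was at 0.781, 0.842 and 1.22 FPKM per 100 FPKM of fibroblast markers in BBR mice and at 0.605, 0.691 and 0.714 in SASP mice. The BBR mice remained above the SASP mice, at means of 0.947 ± 0.237 and 0.670 ± 0.0573 (SD, n = 3 each). Serpinf1 was the 1 member of 10 with this order, which 1.77% of the 18268 genes showed. Its FPKM values already separated the groups, so this order is no independent support. The gap was narrow, with 0.781 as the lowest BBR and 0.714 as the highest SASP value. Frzb overlapped on this scale, at 0.352, 0.635 and 0.889 in BBR mice and 0.417, 0.430 and 0.470 in SASP mice. Dkk3 lay lower in all BBR mice, at 2.88, 4.27 and 4.78 against 6.71, 5.47 and 7.66 FPKM per 100 FPKM. This order, with BBR below, was held by 1 member of 10 and by 44.0% of all genes. The other 7 members also overlapped, among them Sfrp1 at 2.26 ± 0.637 and 2.46 ± 0.264, and Sfrp2 at 1.47 ± 0.398 and 1.51 ± 0.808 (mean ± SD, n = 3 each).

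Against smooth muscle markers the picture was different. Serpinf1 was at 0.885, 1.21 and 0.588 FPKM per 1000 FPKM of these markers in BBR mice and 1.14, 0.758 and 0.926 in SASP mice, and the groups overlapped. Sfrp4 was the 1 member that did not overlap, with 0.565, 0.382 and 0.389 in BBR mice below 1.19, 0.767 and 1.41 in SASP mice. That order was held by 45.0% of all genes, and the opposite order by 0.356%. Per 10 FPKM of enteric neuron and glia markers, 0 of the 10 members separated the groups, where 1.29% of all genes lay above and 6.15% below in BBR mice. The level of Serpinf1 was apart between the drugs as FPKM and per fibroblast marker, and not per smooth muscle or enteric nerve marker.

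**Figure D3:**
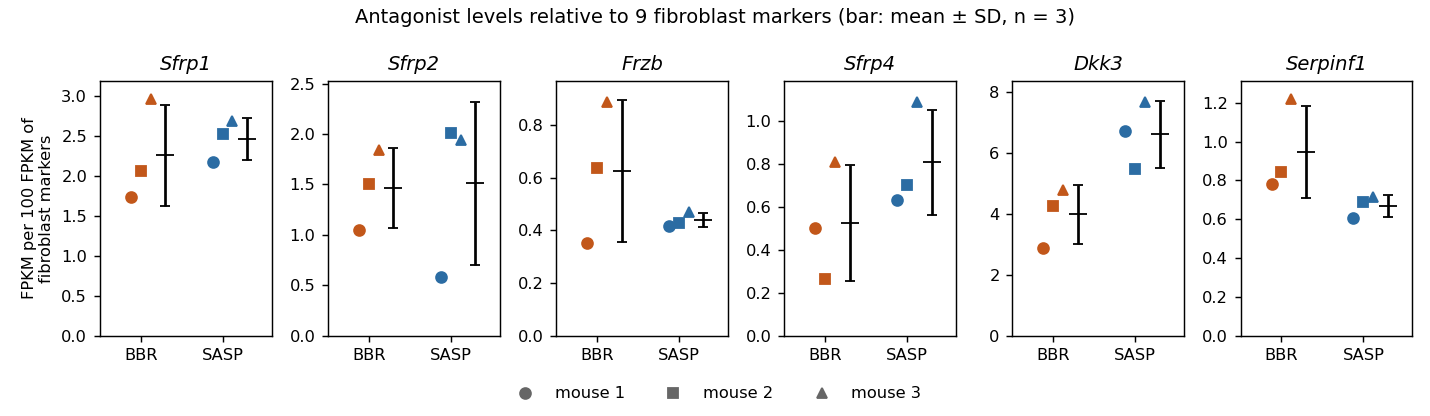
FPKM of the 6 tested antagonist genes per 100 FPKM of 9 fibroblast markers summed (vertical axis), with each mouse as a point and the mean ± SD as a bar (n = 3 per group). Serpinf1 was at 0.781 or more in BBR mice and at 0.714 or less in SASP mice, Dkk3 was lower in BBR mice, and the other genes overlapped.

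To place the antagonists among the genes they act on, 79 other genes of the pathway were listed by role. The table held 74 of them and 42 were tested. Of these, 5 were called as higher and 2 as lower in BBR mice. Over all genes tested, 8.86% were called in either direction and 3.82% as higher. The count of 7 rested on single mice, with 1 without BBR mouse 1, BBR mouse 2 or SASP mouse 3, 2 without SASP mouse 1, 3 without SASP mouse 2 and 18 without BBR mouse 3. Of all tested genes, 33.6% were called without BBR mouse 3, and 0.795% to 4.32% without any other single mouse.

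The Wnt ligands, 3 of which were tested, were higher in BBR mice in 3 of 3 cases (median 0.33) with 0 called in limma and 1 at an unadjusted p under 0.05, Wnt4 (0.52, limma adjusted p = 0.0604). Wnt4 passed the threshold without BBR mouse 3 (0.57, limma adjusted p = 0.0308), a fit in which 33.6% of all tested genes were called. Both genes for Wnt export were called as higher. Wls, which carries lipid-bearing Wnt to the cell surface, was at 42.48, 43.65 and 42.54 FPKM in BBR mice and 24.50, 34.80 and 26.68 FPKM in SASP mice (0.58, SE 0.14, limma adjusted p = 0.0489). Porcn, the enzyme that adds the lipid which Notum removes, was at 2.98 to 3.47 FPKM in BBR mice and 0.94 to 1.56 FPKM in SASP mice. Antagonists outside the 10 members had 5 tested genes, 4 higher and 0 called in limma (median 0.41), with 2 at an unadjusted p under 0.05, Kremen1 and Kremen2. The smallest p was that of Kremen2, a partner of Dkk proteins at the co-receptor, at 6.30, 5.70 and 5.06 FPKM in BBR mice and 2.66, 4.09 and 3.33 FPKM in SASP mice (0.63, limma adjusted p = 0.059). These groups did not overlap. Kremen2 was called without BBR mouse 3 (0.69, limma adjusted p = 0.0236), again the fit with 33.6% of all tested genes called. The median of these antagonists was 0.15 without SASP mouse 1.

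Receptors were higher in BBR mice in 12 of 12 tested cases, with a median of 0.43 against 0.10 for all tested genes. An unadjusted p under 0.05 was reached by 7 of them, against 18.4% of all tested genes with a higher level in BBR mice. In limma 1 was called. This was Ror1, a receptor for Wnt5a, at 3.74, 3.35 and 2.50 FPKM in BBR mice and 1.31, 1.76 and 1.65 FPKM in SASP mice (0.70, SE 0.16, limma adjusted p = 0.0466). R-spondins and their Lgr receptors, which amplify Wnt signals, had 2 tested genes, with 0 called in limma and 0 at an unadjusted p under 0.05. The smaller p was that of Rspo3, at 2.35, 3.42 and 5.49 FPKM in BBR mice and 1.70, 2.57 and 3.08 FPKM in SASP mice (0.43, limma adjusted p = 0.309). Its log2 fold change was 0.18 without BBR mouse 3, 0.26 without SASP mouse 1 and 0.66 without BBR mouse 1. The cytoplasmic components were nearly level, with a median of 0.14 and 9 of 10 higher. Dvl1, the adaptor that relays the signal from Frizzled, was called (17.49, 16.95 and 14.41 against 9.90, 11.88 and 11.32 FPKM, 0.52, limma adjusted p = 0.0483).

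Target genes of β-catenin did not move together. Of 8 tested, 3 were higher and 5 lower (median -0.15, and 0.04 without BBR mouse 3), with 1 called as higher and 2 as lower. An unadjusted p under 0.05 was reached by 4 of them in either direction, for which no share over all genes was counted. Sox9, a crypt transcription factor, was at 9.58, 10.32 and 8.15 FPKM in BBR mice and 4.50, 4.86 and 5.91 FPKM in SASP mice (0.77, SE 0.15, limma adjusted p = 0.0279). Ccnd1, which encodes cyclin D1, went the other way, at 11.07, 12.23 and 8.65 FPKM in BBR mice and 34.85, 41.34 and 41.73 FPKM in SASP mice (-1.80, SE 0.15, limma adjusted p = 0.00245). Myc, a growth regulator, fell as well, at 3.29 to 3.78 FPKM in BBR mice and 5.98 to 8.35 FPKM in SASP mice (-0.87, SE 0.15, limma adjusted p = 0.0230). Of the 7 called pathway genes, Ccnd1 kept its call whichever mouse was removed. The calls of Porcn and Wls were lost without BBR mouse 1, BBR mouse 2, SASP mouse 1 or SASP mouse 3. That of Myc was lost without BBR mouse 1, BBR mouse 2, SASP mouse 2 or SASP mouse 3. Those of Ror1, Dvl1 and Sox9 were lost without any 1 mouse but BBR mouse 3. Each of these genes kept its direction in these fits. The log2 fold changes were 0.82 to 1.02 for Porcn, 0.48 to 0.72 for Wls and -0.99 to -0.78 for Myc. They were 0.60 to 0.82 for Ror1, 0.45 to 0.60 for Dvl1 and 0.70 to 0.86 for Sox9. With no filter on low values Wls, Ror1, Dvl1 and Sox9 were not called. With no mean-variance trend Wls and Dvl1 were not, and Wls also lost its call with a pseudocount of 0.1 and with median-ratio scaling.

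**Figure D4:**
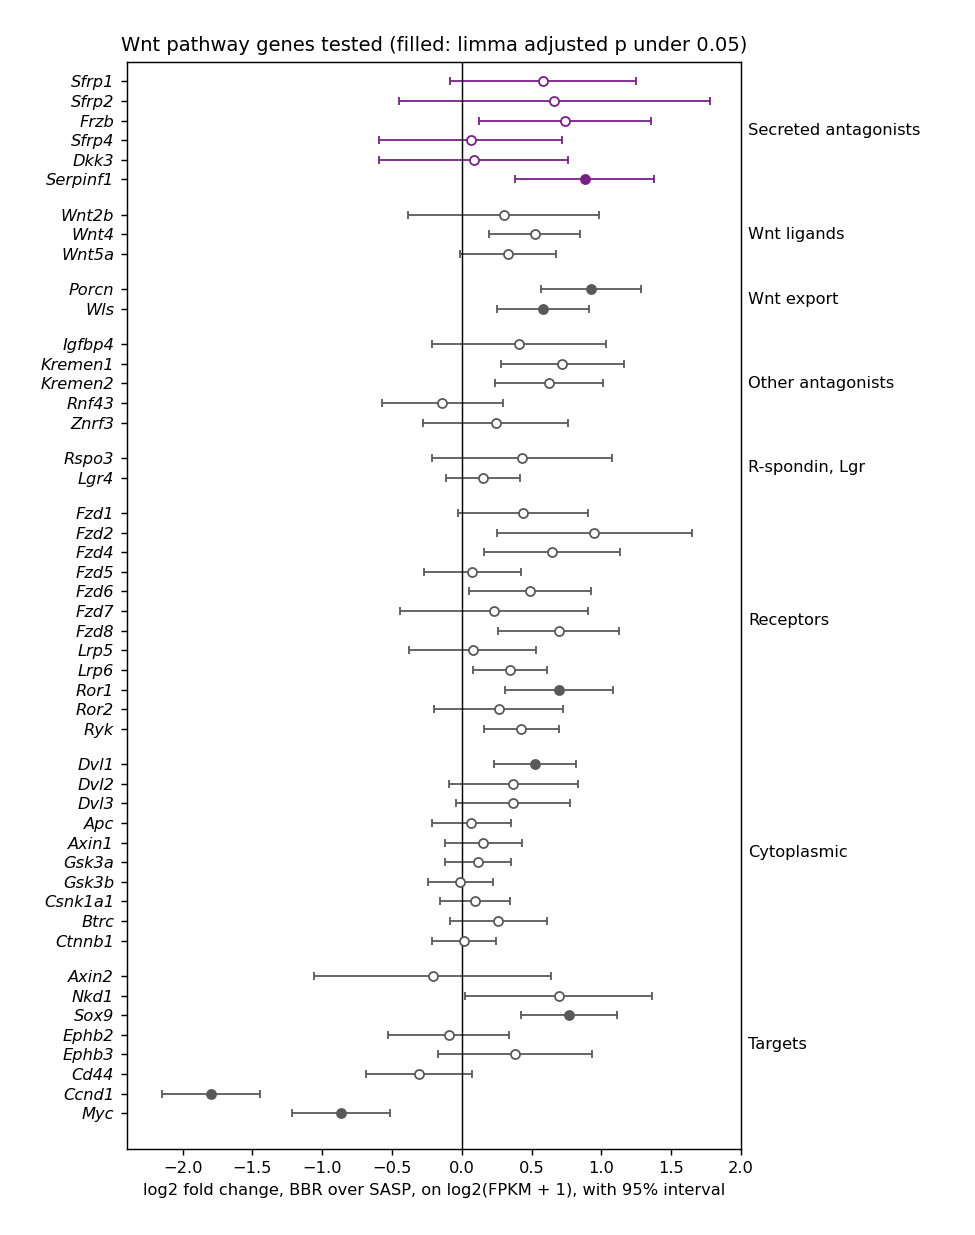
Log2 fold change of BBR over SASP on log2(FPKM + 1) (horizontal axis) with its 95% interval for the 6 tested antagonists and the 42 other tested pathway genes, grouped by role, with filled points for a limma adjusted p under 0.05. The filled points are Serpinf1, Porcn, Wls, Ror1, Dvl1 and Sox9 above 0 and Ccnd1 and Myc below 0.

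**Figure D5:**
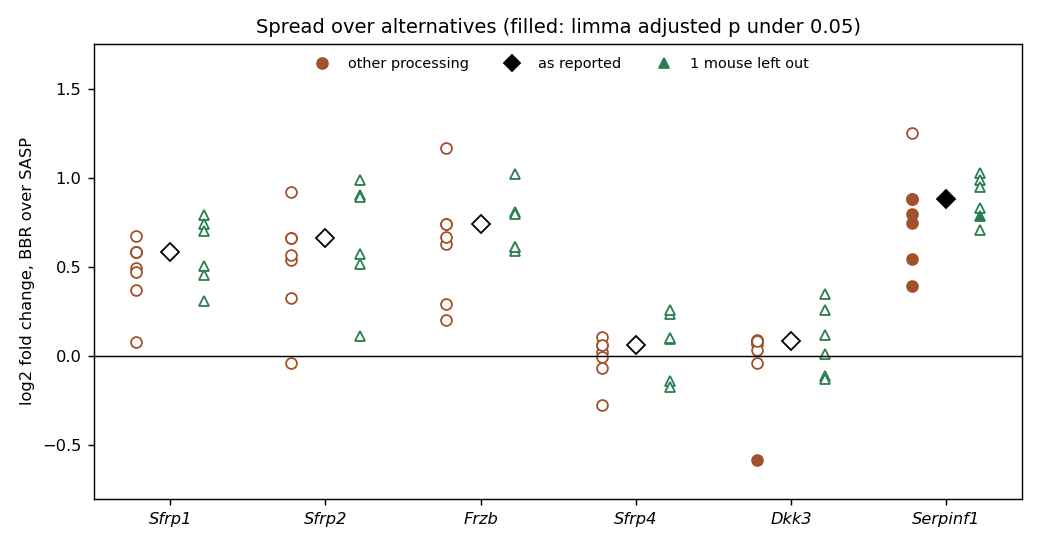
Log2 fold change of BBR over SASP (vertical axis) of the 6 tested antagonists as reported (diamonds), with other processing (circles) and with 1 mouse left out (triangles), filled where the limma adjusted p was under 0.05. Serpinf1 and Frzb stayed above 0 throughout, as did Sfrp1, while Sfrp2 turned below 0 with array quality weights and Sfrp4 and Dkk3 turned under several settings.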

How the data were processed

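The deposited table held FPKM values, which the authors calculated with RSEM 1.2.12 after alignment with Bowtie2 2.2.5 to mm9 (versions and build from the submitters' processing notes). The study's methods name ribosomal RNA depletion and single-end reads of 50 bases, whereas the labels name an Illumina kit that the values cannot settle. The annotation is not given in the sources used here. RSEM divides ambiguous reads between similar genes.

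FPKM are not counts, so log2(FPKM + 1) was compared with limma 3.58.1 (R 4.3.3), with a mean-variance trend, two-sided, over the 12072 genes with at least 1 FPKM in at least 3 of 6 mice. P-values were adjusted by the Benjamini-Hochberg method (threshold 0.05). With 3 mice a group, exact permutation of the labels gives no p below 0.1 and was not used. The limma step was tested on simulated data with independent noise for each gene. Such data hold no shifts shared by many genes of a mouse, so the test does not cover these. P-values measure the spread between these mice only.

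Groups came from the treatment labels. Replicate numbers followed accession order and pair no mice. Reads per mouse were estimated from low FPKM values of short genes, taking the typical value of a gene present in 1 mouse only as 1 read, and are approximate.

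The members and all gene lists were chosen with earlier results of these data known. All 10 members were named. Of each pathway list, up to 3 called genes were named, or the 1 with the smallest p where none was called, and marker genes were given as counts and sums. Alternatives were other filters, pseudocounts, scalings, no trend, array quality weights and leaving out each mouse. Ratios to marker sums were added after the data had been seen.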

Additional observations from a re-analysis of the deposited data

How the results depend on the processing

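The count of antagonists past the threshold was 1, and it was 0 with no filter, with a mean of at least 5 FPKM (where Serpinf1 was not tested) and with a pseudocount of 0.1. It was 2 with array quality weights, Serpinf1 as higher and Dkk3 as lower in BBR mice, and ranged from 0 to 1 when single mice were left out, being 1 only without BBR mouse 3. The count of other pathway genes was 7, and it was 4 with no filter, 11 with quantile normalization and 24 with array quality weights, and ranged from 1 to 18 when single mice were left out. Array quality weights reversed Sfrp2 (-0.036), Sfrp4 (-0.27), Dkk3 (-0.58) and Rspo3 (-0.14). Sfrp4 was also reversed with quantile normalization (-0.067) and median-ratio scaling (-0.0069), and Dkk3 with median-ratio scaling (-0.041). When single mice were left out, Sfrp4 ranged from -0.17 to 0.26 and Dkk3 from -0.13 to 0.35. The causes were not tested. Of 80 values of members under the alternatives, 63 kept their direction and side of the threshold, 7 lost a call and 10 were reversed. Median-ratio scaling moved the median of all genes from 0.10 to -0.02. The number of called genes over the whole table ranged from 96 without SASP mouse 3 to 4051 without BBR mouse 3, against 1069 with all mice, and was 7126 with array quality weights and 591 with no filter, 1737 after quantile normalization and 1683 after median-ratio scaling. Of these, 743 were higher in BBR mice after quantile normalization, 499 after median-ratio scaling and 4636 with array weights, against 461. Levels under 1 FPKM rest on few reads, which limits Sfrp5, Dkk2, Wif1 and Notum. No paired analysis was possible because replicate numbers came from accession order and tie no mice together.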
